A study of Mus musculus with 444 samples.

Results

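The cells described here are single mammary epithelial cells of pubertal and adult FVB/NJ mice whose RNA held a set of mitotic transcripts. Division itself was not measured. They were chosen by the data themselves. Cells with fewer than 100000 read pairs or 1500 genes, not counting mitochondrial and ribosomal protein genes, were dropped, and any of the remaining (retained) cells was called cycling if at least 5 of 15 mitotic genes (Mki67, Top2a, Cdk1, Ccnb1, Ccnb2, Ccna2, Birc5, Ube2c, Aurkb, Bub1, Cdc20, Tpx2, Kif11, Nusap1 and Hmmr) reached 10 CPM, the read pairs of a gene scaled to a common total in every cell. This gave 62 cycling cells among 323 retained and 444 deposited cells. Of these, 40 were pubertal, among 171 retained of 221, and 22 were adult, among 152 retained of 223. Both groups were untreated total mammary epithelium of female mice, taken in puberty (5 weeks) or in adulthood (10 weeks), and the labels set them apart by stage alone. Epithelial cells from pooled glands were sorted as CD24+ after removal of cells with blood and endothelial surface markers, captured singly on Fluidigm C1 chips, inspected under a microscope, and sequenced as full-length cDNA. The labels tie no cell to a mouse, sort or chip, so each stage is 1 sample of many cells, no test between groups was made, and a share is given with its exact 95% Clopper-Pearson interval, which covers counting error only. For a count of 0 the limit printed is instead the share that 3 cells would make, a lower bound than the exact interval gives, and it limits cells with reads, not cells that express the gene.

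A dividing cell copies its DNA in S phase and separates the copies in mitosis. S phase runs on replication enzymes such as the MCM helicase and ribonucleotide reductase, whose genes are driven by E2F factors once cyclin D and cyclin E kinases have inactivated the retinoblastoma proteins. The cyclin B and Cdk1 kinase, spindle motors, checkpoint kinases and the anaphase-promoting complex act later, and their genes are switched on in G2 and M, largely through the DREAM and B-Myb complexes, which bind a short element known as the cell cycle genes homology region (CHR), with the CCAAT-binding factor NF-Y beside it. In the mammary gland, division is most active in the terminal end buds of puberty and follows the oestrous cycle in the adult, where luminal cells with the oestrogen and progesterone receptors are known to act largely by signalling to their neighbours.

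The 5 genes that ranked first among those higher in cycling cells of both stages were Bub1, a spindle checkpoint kinase, Cenpe, a kinetochore motor, Hmmr, a spindle-associated hyaluronan receptor, Ube2c, the ubiquitin-conjugating enzyme of the anaphase-promoting complex, and Ccnb1, cyclin B1. All but Cenpe belong to the 15 genes of the rule. Their promoters are shown because they share the elements just described. Each is the 300 bases from 250 before to 50 after the start of the gene, from RefSeq in build GRCm38.p6, written 5′ to 3′ on the strand of the gene. Capitals mark CHR-type hexamers, which are TTTGAA, its variant TTTAAA and the further variant TTCGAA, and the pentamer CCAAT, each searched on both strands, and overlapping matches form 1 run of capitals.
Bub1 (chr2:127831810-127832109, minus strand): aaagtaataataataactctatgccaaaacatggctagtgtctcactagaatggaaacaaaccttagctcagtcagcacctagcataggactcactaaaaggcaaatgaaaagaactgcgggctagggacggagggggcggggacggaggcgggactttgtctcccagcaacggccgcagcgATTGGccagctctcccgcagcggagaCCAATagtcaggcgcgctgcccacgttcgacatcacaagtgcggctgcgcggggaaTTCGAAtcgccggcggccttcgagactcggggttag
Cenpe (chr3:135212313-135212612, plus strand): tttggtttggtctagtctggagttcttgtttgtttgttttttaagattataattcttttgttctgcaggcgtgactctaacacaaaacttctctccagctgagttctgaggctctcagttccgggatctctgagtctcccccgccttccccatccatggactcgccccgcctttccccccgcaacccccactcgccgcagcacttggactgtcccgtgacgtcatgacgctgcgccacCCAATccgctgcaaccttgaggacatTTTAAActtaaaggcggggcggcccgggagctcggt
Hmmr (chr11:40733388-40733687, minus strand): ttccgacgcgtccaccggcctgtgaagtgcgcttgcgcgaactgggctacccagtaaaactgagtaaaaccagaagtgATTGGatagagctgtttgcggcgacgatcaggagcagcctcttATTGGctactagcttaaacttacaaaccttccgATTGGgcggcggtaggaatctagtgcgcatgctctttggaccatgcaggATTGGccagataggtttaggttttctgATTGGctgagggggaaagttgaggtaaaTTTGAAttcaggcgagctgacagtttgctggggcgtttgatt
Ube2c (chr2:164769679-164769978, plus strand): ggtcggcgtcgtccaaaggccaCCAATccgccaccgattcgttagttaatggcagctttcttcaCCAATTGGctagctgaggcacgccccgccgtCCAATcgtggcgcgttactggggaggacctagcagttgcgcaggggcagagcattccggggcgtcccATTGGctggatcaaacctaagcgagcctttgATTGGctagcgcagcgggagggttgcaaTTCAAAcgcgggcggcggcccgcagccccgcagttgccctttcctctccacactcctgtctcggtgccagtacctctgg
Ccnb1 (chr13:100786437-100786736, minus strand): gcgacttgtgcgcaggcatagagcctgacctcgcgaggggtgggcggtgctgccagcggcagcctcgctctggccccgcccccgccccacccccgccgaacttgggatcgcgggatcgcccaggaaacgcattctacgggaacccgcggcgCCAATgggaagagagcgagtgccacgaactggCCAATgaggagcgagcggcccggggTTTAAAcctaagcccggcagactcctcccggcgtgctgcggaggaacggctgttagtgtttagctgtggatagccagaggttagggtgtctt
Each of the 5 windows held 1 CHR-type hexamer, and they held between 1 (Cenpe) and 6 (Ube2c) CCAAT pentamers. Across the mitosis genes considered here, 58 of 69 had a promoter in the table, and 46 of these (79.3%) held a CHR-type hexamer and 39 (67.2%) held both elements. Among all 27025 genes with a promoter the shares were 29.0% and 11.5%. A match says only that these letters are present.

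For replication genes the element of interest is the E2F site, searched as TTTNNCGC on both strands. Of the 4 replication genes named below, Mcm5 and Mcm7, subunits of the MCM helicase, held it, and their windows are shown with that site and CCAAT in capitals.
Mcm5 (chr8:75109259-75109558, plus strand): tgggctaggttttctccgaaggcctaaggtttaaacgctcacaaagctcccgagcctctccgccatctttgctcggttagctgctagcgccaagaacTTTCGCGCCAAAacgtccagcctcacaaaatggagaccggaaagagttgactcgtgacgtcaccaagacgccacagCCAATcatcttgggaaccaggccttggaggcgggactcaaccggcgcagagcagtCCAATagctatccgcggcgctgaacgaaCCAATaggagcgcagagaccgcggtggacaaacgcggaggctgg
Mcm7 (chr5:138171834-138172133, minus strand): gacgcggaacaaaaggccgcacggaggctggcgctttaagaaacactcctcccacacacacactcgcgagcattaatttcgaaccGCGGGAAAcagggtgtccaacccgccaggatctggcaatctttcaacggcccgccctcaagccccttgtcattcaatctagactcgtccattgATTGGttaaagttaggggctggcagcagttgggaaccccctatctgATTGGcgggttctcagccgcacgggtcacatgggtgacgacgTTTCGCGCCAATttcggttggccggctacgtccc
Each held 2 E2F sites and 3 CCAAT pentamers. Both windows also hold a CHR-type hexamer, which was not marked here and stands in lower case. Such hexamers were in 15 of 47 replication gene promoters (31.9%), next to 29.0% of all promoters. The E2F site was in 19 of 47 replication gene promoters (40.4%), in 10 of 58 mitosis gene promoters (17.2%) and in 5.27% of all promoters.

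Cycling cells made up 23.4% of retained pubertal cells (40 of 171, interval 17.3 to 30.5%) and 14.5% of retained adult cells (22 of 152, interval 9.30 to 21.1%), and the intervals overlapped. The adult cells fall into a pair of sets. The 107 retained cells numbered 48 to 188 in their titles had reads of the 7SK RNA gene Rn7sk in 106 cells, against 4 of the other 45 adult cells and 28 of 171 pubertal cells. Nothing in the labels says how these sets of libraries differ. Cycling cells were 17 of 107 (15.9%, interval 9.54 to 24.2%) in the first set and 5 of 45 (11.1%, interval 3.71 to 24.1%) in the second. Adult comparisons therefore rest mostly on 17 cycling cells of 1 set, and values within that set are given for the lists and genes where they differ most. These 17 cells were all numbered 117 to 183. Values within the set thus also compare that stretch with lower-numbered cells of the set, none of them cycling. The part of cell number in these values was not tested.

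**Figure D1:**
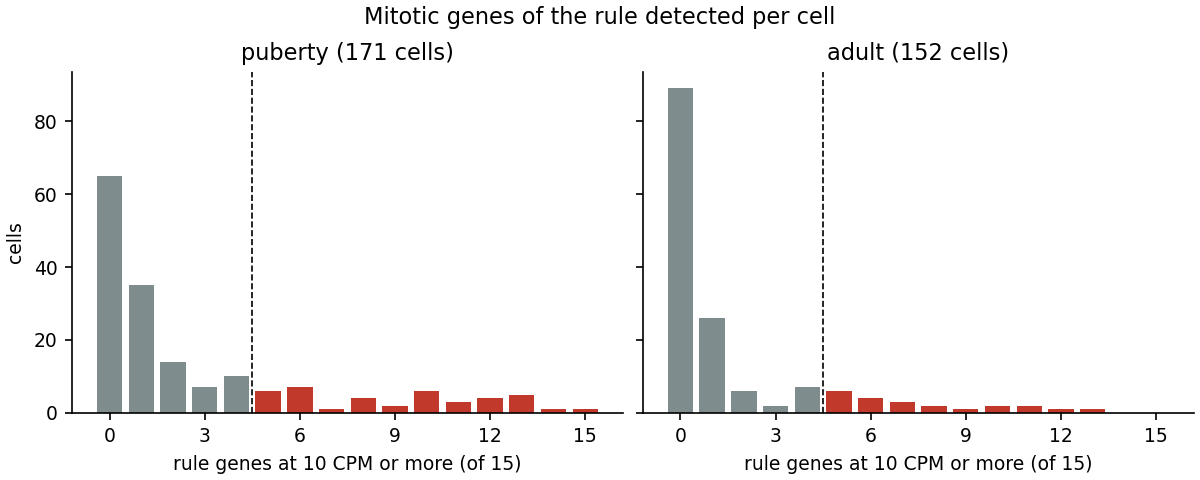
Number of cells (vertical axis) by the number of the 15 rule genes at 10 CPM or more (horizontal axis), for 171 pubertal and 152 adult cells; red bars right of the dashed line are the cycling cells. Most cells of both stages sat at 0 or 1 gene, and the pubertal cells reached 15 genes where the adult cells reached 13.

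The number of rule genes is what chose the cells and is given as a description. The median cycling cell had 9.5 of the 15 genes in puberty and 7 in the adult, and the median of the other cells was 1 and 0. The threshold did not fall in a gap. There were 6 pubertal and 6 adult cells with 5 genes, just inside, and 10 and 7 cells with 4 genes, just outside. The summed CPM of the 15 genes had a median of 973 in the pubertal cells with 5 genes and 169 in those with 4, and of 397 and 310 in the adult cells with 5 and 4. In the adult the cells on either side of the threshold were thus close, and they also had similar numbers of mitosis genes outside the rule (medians 15 and 16 of 54).

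Which mitotic genes carried the rule differed between the stages. Top2a, the topoisomerase that untangles sister chromatids, reached 10 CPM in 36 of 40 pubertal and 20 of 22 adult cycling cells, with medians of 539 and 171 CPM. Mki67, the proliferation antigen that coats mitotic chromosomes, reached it in 35 of 40 and 12 of 22, with a pubertal median of 178 CPM (lowest 1.5, highest 2384) and an adult one of 50.2 CPM (lowest 0, highest 672). Cdk1, the mitotic kinase, did so in 32 of 40 pubertal cycling cells but 4 of 22 adult ones, and its adult median was 0. Birc5 (survivin, of the chromosomal passenger complex) was at 10 CPM in 32 of 40 and 7 of 22, and Tpx2, a spindle assembly factor, in 36 of 40 and 9 of 22. Ccnb1 went the other way, with 27 of 40 in puberty and 19 of 22 in the adult, and so did Ccnb2 (cyclin B2; 23 of 40 and 17 of 22), Bub1 (14 of 40 and 13 of 22) and Hmmr (31 of 40 and 19 of 22). The kinase gene Aurkb was the least often seen in the adult, together with the spindle motor gene Kif11, at 3 of 22 cells each. All these counts are of genes the rule used.

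Depth did not set cycling cells apart, but the number of genes did. Read pairs had a median of 303141 in pubertal cycling cells and 332263 in the other pubertal cells, and of 289200 and 336003 in the adult. For all that follows, every cell was thinned to 100000 read pairs, so that 1 read is 10 CPM. At that equal depth the median cycling cell had 3476 genes in puberty and 3371 in the adult, against 2658 and 2448 in the other cells. Reads of most genes were also found in a larger share of cycling cells. Of the genes compared, 83.2% in puberty and 72.7% in the adult were found in a larger share of cycling than of other cells, with a median difference of 8.74 and 7.76 percentage points. Shares of cells with reads have to be read against that shift. No doublet caller was run, and the part of doublets in these differences was not tested. Cells with reads of at least 6 of 12 basal and at least 6 of 12 hormone-sensing luminal markers were 7 of 40 cycling and 22 of 131 other pubertal cells (17.5% and 16.8%), and 2 of 22 and 19 of 130 adult cells (9.09% and 14.6%).

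Gene levels were compared as the mean CPM over the cycling cells and over the other retained cells of the same stage, as log2 ratios with 5 CPM added to both, for genes at 20 CPM or more in either. Of 7822 genes compared in puberty, 1292 (16.5%) were at least 2-fold higher and 1462 (18.7%) at least 2-fold lower in cycling cells. Of 7519 in the adult, 1524 (20.3%) were higher and 2196 (29.2%) lower. The median log2 ratio of all genes was -0.01 in puberty and -0.15 in the adult. With so many genes past 2-fold, such a count says something of a gene list only beside these percentages. When the highest cell of each gene was left out in each group, the higher genes fell to 762 in puberty and 583 in the adult.

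Mitosis genes outside the rule were the most raised list. Of 54 listed, 49 could be compared in puberty, and 45 were at least 2-fold higher and none lower (median log2 ratio 2.79). In the adult 36 could be compared, of which 35 were higher and none lower (median 3.29). These lists pass the level filter mainly through the cycling cells and track the genes that chose those cells, so the counts describe the cells and test nothing. Cenpe had a mean of 376 CPM in pubertal cycling cells against 8.40 in the others, with reads in 24 of 40 (60%, interval 43.3 to 75.1%) and 13 of 131 cells (9.92%, interval 5.39 to 16.4%). In the adult its means were 506 and 3.69 CPM, and 17 of 22 against 11 of 130 cells had reads. Pbk, a mitotic kinase, had reads in 29 of 40 pubertal cycling cells and 11 of 131 others, and in 18 of 22 and 12 of 130 adult cells. Cdca3, a trigger of mitotic entry, and Ckap2l, a spindle protein, had reads in 21 of 40 pubertal cycling cells each, against 9 and 3 of 131 others. In the adult these last genes were in few cycling cells (7 and 5 of 22), and 1 cell held 79.9% of the Cdca3 reads and 81.7% of the Ckap2l reads.

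DNA replication genes were raised too, and more evenly in puberty than in the adult. In puberty 41 of 47 compared genes were at least 2-fold higher and none lower (median 1.85). In the adult 19 of 36 were higher and 4 lower (median 1.16), and without the highest cell of each gene 9 of 23 were higher and 5 lower (median 0.65). Rrm2, the regulated subunit of ribonucleotide reductase, had log2 ratios of 3.31 and 2.83, with reads in 25 of 40 pubertal cycling cells (median 30 CPM, highest 2840) and in 18 of 22 adult ones (median 65 CPM, highest 2080), against 29 of 131 and 30 of 130 other cells. Within adult cells 48 to 188 Rrm2 had reads in 17 of 17 cycling cells and 29 of 90 others. Mcm7 had log2 ratios of 2.03 and 1.95 and reads in 60% and 59.1% of cycling cells, against 20.6% and 20.8% of the others. Lig1, the ligase that joins Okazaki fragments, was in 28 of 40 pubertal cycling cells (log2 ratio 2.37). Its adult ratio of 2.93 fell to 0.18 within cells 48 to 188, and 1 cell held 72.8% of its adult cycling reads. Mcm5 rested on 1 cell in the adult as well, with 93.4% of the reads, and its ratio there turned to -0.26 outside cells 48 to 188.

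Most cycling cells carried transcripts of both phases. At least 10 of 61 replication genes and at least 10 of 54 mitosis genes outside the rule were found together in 36 of 40 pubertal and 18 of 22 adult cycling cells. Of the pubertal cycling cells, 17 had more mitosis than replication genes, 17 had fewer and 6 had equal numbers. Of the adult ones, 17 had more mitosis genes, 4 fewer and 1 equal. Cells with replication genes but without the mitotic programme lay outside the rule. At least 10 replication genes were found in 24 of 131 other pubertal cells and 32 of 130 other adult cells, of which 11 and 7 also had 10 mitosis genes. The rule thus did not take in every cell with many replication transcripts.

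**Figure D2:**
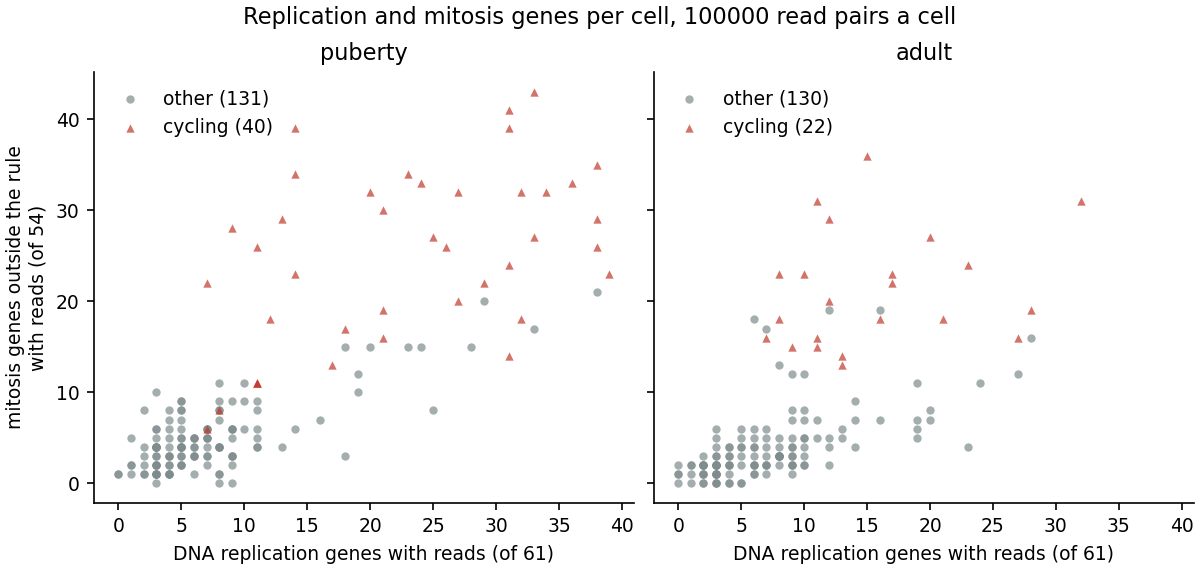
Each point is a cell, with its number of DNA replication genes (horizontal, of 61) and of mitosis genes outside the rule (vertical, of 54) with reads at 100000 read pairs, by stage; red triangles are cycling cells. Pubertal cycling cells spread along the diagonal up to 39 replication genes, while 17 of 22 adult cycling cells had more mitosis than replication genes.

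Chromatin and nuclear genes moved less. In puberty 16 of 29 were at least 2-fold higher and none lower (median 1.04), and in the adult 7 of 28 were higher and 3 lower (median 0.65; 7 of 27 and 4 within cells 48 to 188, median 0.39). Tubb5, a beta-tubulin, had a median of 1400 CPM in pubertal cycling cells (lowest 0, highest 5640) against 270 in the others, and of 215 against 30 CPM in the adult, with log2 ratios of 2.02 and 1.77. Hmgb2, a chromatin protein of dividing cells, was found in 37 of 40 pubertal cycling cells (92.5%, interval 79.6 to 98.4%) against 40 of 131 others (30.5%, interval 22.8 to 39.2%), and in 16 of 22 against 50 of 130 adult cells. Cbx5 (HP1 alpha) had log2 ratios of 2.46 and 2.34. Ezh2, the methyltransferase of Polycomb complex 2 and an E2F target, went in opposite directions at the 2 stages. It was higher in pubertal cycling cells (29 of 40 against 49 of 131 cells, log2 ratio 2.13) and lower in adult ones (8 of 22 against 65 of 130 cells, log2 ratio -2.74), where 1 of the other cells held 42.4% of the reads. Of 69 replication-dependent histone genes, whose mRNAs have no poly(A) tail, 5 in puberty and 4 in the adult could be compared.

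Genes around the G1 decision did not move as a list. Of 16 G1 cyclin, kinase and E2F genes, 2 of 10 compared were higher and 3 lower in puberty (median 0.29), and 4 of 9 were higher and 1 lower in the adult (median 0.42). Within adult cells 48 to 188 it was 2 of 7 higher and 1 lower (median -0.058). Rbl1 (p107), a pocket protein that is itself an E2F target, was higher at both stages, in 17 of 40 against 9 of 131 pubertal cells and 7 of 22 against 2 of 130 adult cells (log2 ratios 2.30 and 3.05). E2f5 was found in 10 of 22 adult cycling cells against 24 of 130 others (log2 ratio 2.55) but in 3 of 40 against 13 of 131 in puberty (-1.80). Inhibitors and quiescence genes had medians of -0.22 and -0.24, with 1 of 16 higher and 1 lower in puberty and 1 of 13 higher and 3 lower in the adult, or 3 of 14 and 5 within cells 48 to 188. Sesn1, a stress-induced sestrin gene, and Txnip, a glucose-regulated arrestin gene, had log2 ratios of -1.91 and -0.72 in puberty and of 0.76 and 0.88 in the adult.

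**Figure D3:**
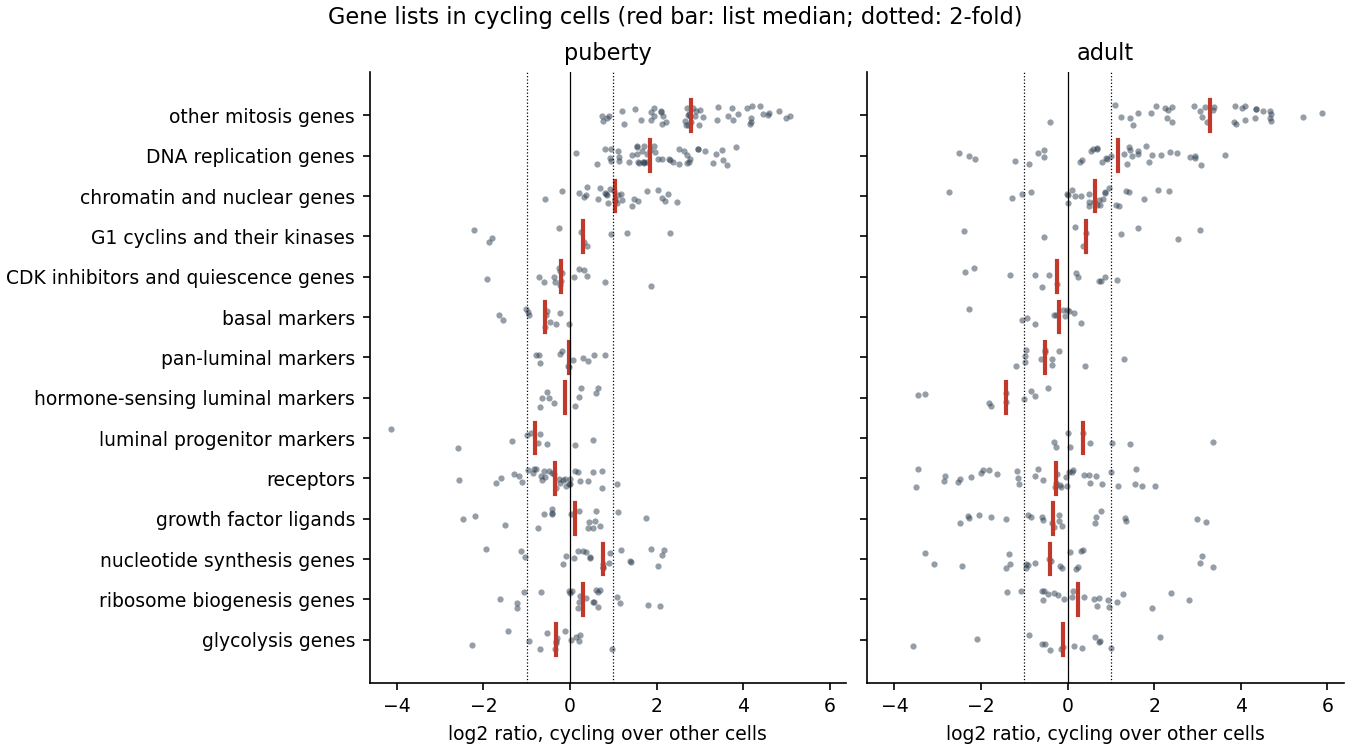
Log2 ratio of cycling over other cells (horizontal) for each gene of 14 lists at 20 CPM or more, in puberty and in the adult; the red bar is the list's median and the dotted lines are 2-fold. Mitosis genes (medians 2.79 and 3.29) and replication genes (1.85 and 1.16) lie to the right at both stages, and hormone-sensing markers lie near 0 in puberty (median -0.13) and to the left in the adult (median -1.42).

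The cells were first classed by their keratins, with Krt5 or Krt14 as basal and Krt8 or Krt18 as luminal, each at 100 CPM or more. In the adult 137 retained cells had Krt14 reads and 15 had none. The adult class with both keratins is therefore not read as a lineage. In puberty the cycling cells divided among the classes much like the rest. Luminal keratin alone was found in 24 of 40 cycling cells (60%, interval 43.3 to 75.1%) and 77 of 131 others (58.8%, interval 49.8 to 67.3%), both keratins in 10 of 40 (25%) and 37 of 131 (28.2%), basal keratin alone in 4 of 40 and 9 of 131, and neither in 2 of 40 and 8 of 131. In the adult 17 of 22 cycling cells (77.3%, interval 54.6 to 92.2%) had both keratins, against 74 of 130 others (56.9%, interval 48.0 to 65.6%), and 4 of 22 (18.2%, interval 5.19 to 40.3%) had luminal keratin alone, against 42 of 130 (32.3%, interval 24.4 to 41.1%). The intervals overlapped. Basal keratin alone was found in 1 of 22 and 8 of 130, and neither in 0 of 22, which allows a share of up to 13.6%, and 6 of 130. Counted the other way, 24 of 101 pubertal cells with luminal keratin alone were cycling (23.8%) and 10 of 47 with both (21.3%), while in the adult 4 of 46 with luminal keratin alone (8.70%, interval 2.42 to 20.8%) and 17 of 91 with both (18.7%, interval 11.3 to 28.2%) were cycling. The class with both keratins depends on the level asked for. At 500 CPM it held 5% of pubertal and 27.3% of adult cycling cells, and at 10 CPM 35% and 95.5%. Most adult cycling cells were numbered 117 to 183, and most other cells of that stretch also had both keratins at 100 CPM. The other cells there with luminal keratin alone were cells 125, 161, 168 and 170. The part of cell number in the adult difference was not tested.

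**Figure D4:**
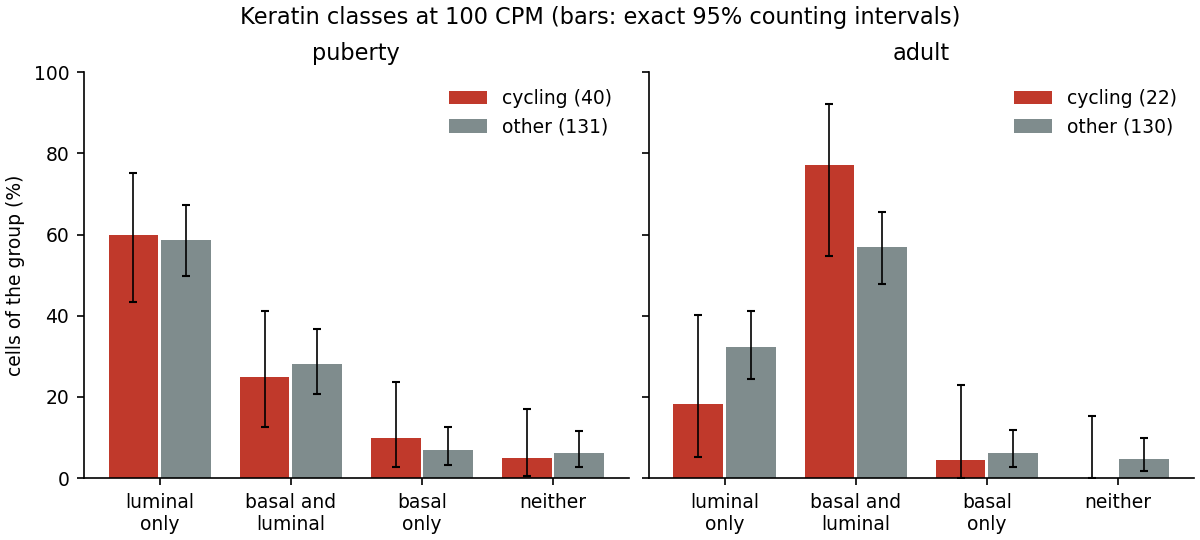
Share of cells (vertical axis, percent of the group) in each keratin class at 100 CPM for cycling (red) and other (grey) cells of each stage, with exact 95% counting intervals. The pubertal groups have nearly the same shares (60% and 58.8% luminal only), and in the adult 77.3% of cycling cells against 56.9% of the others had both keratins, with overlapping intervals.

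Single keratins were compared as well. Krt14 had reads in 47.5% of cycling and 47.3% of other pubertal cells, and in 95.5% and 89.2% of adult cells, with adult medians of 1165 and 415 CPM. Krt5 had reads in 42.5% and 29.8% of pubertal cells and in 77.3% and 63.1% of adult cells. Krt8 and Krt18 had reads in 90% of pubertal cycling cells each, with medians of 1045 and 1800 CPM against 1170 and 2810 CPM in the others. In the adult their medians were 410 and 1095 CPM in cycling cells and 770 and 1395 CPM in the others. Krt7, another simple epithelial keratin, was in 2 of 22 adult cycling cells (9.09%, interval 1.12 to 29.2%) against 48 of 130 others (36.9%, interval 28.6 to 45.8%), and in 27 of 40 against 86 of 131 pubertal cells. Cldn3, a tight junction claudin, had log2 ratios of -0.71 and -1.18. Of 12 pan-luminal markers none passed 2-fold in puberty (median -0.04), and 1 was higher and 1 lower in the adult (median -0.52). Within adult cells 48 to 188, 8 of 12 were at least 2-fold lower (median -1.16).

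Of 12 basal markers, which include the keratins Krt5, Krt14 and Krt17, none passed 2-fold upwards at either stage, 3 were lower in puberty (median -0.57) and 2 in the adult (median -0.19). Without the highest cell of each gene 6 were lower in puberty (median -1.03) and 4 in the adult (median -0.40), and with at least 8 rule genes asked for 7 were lower in puberty (median -1.31). Acta2, smooth muscle actin of the contractile myoepithelium, had reads in 60% and 57.3% of pubertal cells and in 90.9% and 90.8% of adult cells, with log2 ratios of -0.98 and -0.74. Trp63, the transcription factor of basal identity, was in 10 of 40 and 30 of 131 pubertal cells and in 8 of 22 and 54 of 130 adult cells. Cdh3, P-cadherin, had log2 ratios of -1.63 and -2.28 with nearly equal shares of cells (17.5% and 16.8%, and 36.4% and 36.2%), and 1 of the other cells held 46.8% of the pubertal and 61.0% of the adult reads. At least 6 of the 12 basal markers were found in 16 of 40 cycling and 52 of 131 other pubertal cells, and in 20 of 22 and 105 of 130 adult cells.

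Hormone-sensing luminal markers were near the other cells in puberty and lower in adult cycling cells. In puberty none of 10 compared genes passed 2-fold in either direction (median -0.13), while in the adult 7 of 10 were at least 2-fold lower in cycling cells and none higher (median -1.42), against 29.2% of all adult genes. At least 6 of the 12 markers were found in 25 of 40 pubertal cycling cells (62.5%, interval 45.8 to 77.3%) and 62 of 131 others (47.3%, interval 38.5 to 56.2%), but in 3 of 22 adult cycling cells (13.6%, interval 2.91 to 34.9%) and 31 of 130 others (23.8%, interval 16.8 to 32.1%). Whether the stages differ in this could not be tested. The adult median was -0.998 within cells 48 to 188, with 4 of 9 lower and 1 higher, and 0.02 among cells with basal keratin, with 2 of 8 lower and 1 higher.

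The prolactin receptor Prlr had the lowest adult ratio of these markers. In pubertal cycling cells its level ran from 0 to 5580 CPM with a median of 1005, in the other pubertal cells from 0 to 19010 with a median of 1250, and the share of cells with reads was 87.5% and 87.8%. In adult cycling cells it ran from 0 to 1960 CPM with a median of 15, and in the other adult cells from 0 to 33230 with a median of 140. The adult ranges overlapped, and the groups differed mainly in the cells above 2000 CPM, of which there were 38 among the other adult cells and none among the cycling ones. The means were 285 and 3183 CPM, a log2 ratio of -3.46, which was -3.63 within cells 48 to 188 and -3.02 outside them, and the shares with reads were 59.1% (interval 36.4 to 79.3%) and 79.2% (interval 71.2 to 85.8%). Of adult cells with Prlr reads 13 of 116 were cycling, and of those without 9 of 36. Among adult cells numbered 117 to 183, which include most adult cycling cells, the highest other cells were cell 130 at 3940 CPM and cell 161 at 1800 CPM. Apart from cell 130, the adult cells above 2000 CPM lay outside that stretch. The part of cell number in the adult difference was not tested.

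Foxa1, the pioneer factor of oestrogen receptor binding, was likewise lower in adult cycling cells, but its pubertal mean was higher in cycling cells. It was found in 23 of 40 cycling and 62 of 131 other pubertal cells, with means of 193 and 121 CPM, and in 2 of 22 (9.09%, interval 1.12 to 29.2%) and 26 of 130 adult cells (20%, interval 13.5 to 27.9%), with means of 1.82 and 61.5 CPM and a highest adult cycling cell at 30 CPM. Wnt4, the progesterone-induced ligand, had log2 ratios of 0.59 and -1.77. Ly6a (Sca1), a surface marker of these cells, had ratios of -0.691 and -1.002, and the adult ratio was 0.29 within cells 48 to 188.

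The steroid receptors themselves were found about as often in cycling cells as in the rest. Most genes compared, by contrast, were found in a larger share of cycling cells. Pgr, the progesterone receptor, had reads in 14 of 40 cycling (35%, interval 20.6 to 51.7%) and 44 of 131 other pubertal cells (33.6%, interval 25.6 to 42.4%), with highest levels of 650 and 3020 CPM. In the adult it had reads in 6 of 22 (27.3%, interval 10.7 to 50.2%) and 41 of 130 cells (31.5%, interval 23.7 to 40.3%), and 1 cell of 1850 CPM held 88.9% of the adult cycling reads. Esr1, the oestrogen receptor, had reads in 12 of 40 and 41 of 131 pubertal cells (30% and 31.3%) and in 4 of 22 and 25 of 130 adult cells (18.2% and 19.2%). Its adult log2 ratio of -1.82 became 0.62 within cells 48 to 188, and 1 of the other adult cells held 53.9% of the reads. Either receptor was seen in 21 of 40 pubertal cycling cells (52.5%, interval 36.1 to 68.5%) and 10 of 22 adult ones (45.5%, interval 24.4 to 67.8%), against 51.9% and 42.3% of the other cells. Seen from the receptors, 14 of 58 pubertal cells with Pgr reads were cycling (24.1%) and 26 of 113 without (23.0%), and in the adult 6 of 47 (12.8%) and 16 of 105 (15.2%).

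**Figure D5:**
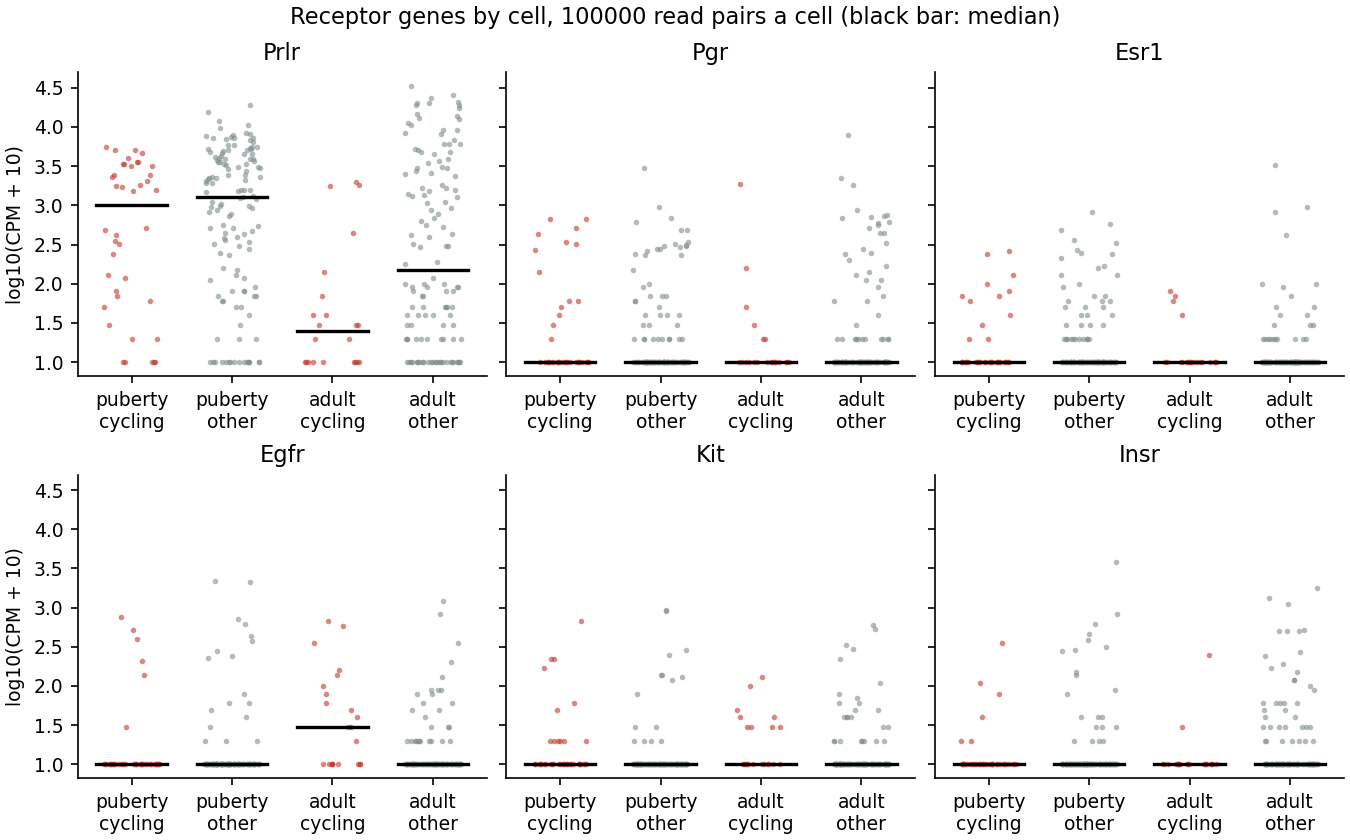
Level of 6 receptor genes in every cell as log10 of CPM plus 10 (vertical axis) for cycling (red) and other (grey) cells of each stage, with the median as a black bar. Prlr had similar medians in both pubertal groups (1005 and 1250 CPM) and a lower one in adult cycling than in other adult cells (15 and 140 CPM), and Egfr had a median above 0 in adult cycling cells alone (20 CPM).

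Markers of luminal progenitors were mixed. In puberty 3 of 10 were at least 2-fold lower and none higher (median -0.82). The pubertal count was 8 of 11 lower without cells high in other cell types' markers (median -1.09), 6 of 11 with luminal keratin alone (median -1.09) and 6 of 10 with at least 8 rule genes (median -1.16), but 1 higher and 2 lower of 10 among cells with at least 3000 genes (median -0.10). In the adult 3 of 9 were higher and none lower (median 0.36), but with at least 8 rule genes asked for the adult count became 1 higher and 5 lower (median -1.20), and without the highest cell of each gene it was 0 of 7 higher and 1 lower (median -0.27). Kit, the stem cell factor receptor, was in a larger share of cycling cells at both stages, 12 of 40 (30%, interval 16.6 to 46.5%) against 15 of 131 (11.5%, interval 6.55 to 18.2%) in puberty and 9 of 22 (40.9%, interval 20.7 to 63.6%) against 26 of 130 (20%, interval 13.5 to 27.9%) in the adult. Its mean level hardly differed (35 and 22.7 CPM, and 17.7 and 19.9 CPM). Of cells with Kit reads 12 of 27 were cycling in puberty (44.4%, interval 25.5 to 64.7%), against 28 of 144 without (19.4%, interval 13.3 to 26.9%), and 9 of 35 against 13 of 117 in the adult. Pubertal cycling cells 1, 39, 55, 78, 84 and 183, and other pubertal cells 24, 56, 146 and 159, had only 1 Kit read (10 CPM). The adult cycling cells with Kit reads were all numbered 151 to 183. Apart from cells 154 and 183, at 120 and 90 CPM, they had 20 to 40 CPM. The part of cell number in the adult share was not tested. Most genes were found in a larger share of cycling cells, and the Kit shares have to be read against that shift. Elf5, the alveolar transcription factor, was in 6 of 40 against 8 of 131 pubertal cells and 3 of 22 against 11 of 130 adult cells. Aldh1a3, a retinaldehyde dehydrogenase, had log2 ratios of -1.34 and 3.36, the latter from 1 cell with 99.5% of the reads, and without the highest cells it was -1.23. Mfge8, the milk fat globule protein, had ratios of -0.995 and 1.03.

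Milk protein genes in cycling cells came down to single cells. In puberty 4 of 8 were at least 2-fold lower and none higher (median -2.005), and in the adult 3 of 8 were higher and 1 lower (median 0.92), which became 1 higher and 4 lower within cells 48 to 188 (median -2.31). Csn2, beta-casein, was in 0 of 40 pubertal cycling cells, which allows a share of up to 7.5%, and in 2 of 131 others. In the adult 3 of 22 cycling cells had it, 1 of them at 41590 CPM. Genes of immature basal cells had medians of -0.34 and 0.24. Moxd1, a monooxygenase-like gene, was in 19 of 22 adult cycling cells (86.4%, interval 65.1 to 97.1%) with a median of 160 CPM, against 62 of 130 others (47.7%, interval 38.9 to 56.6%) with a median of 0, and in 19 of 40 against 78 of 131 pubertal cells. Its log2 ratio was 2.41 in the adult, 2.37 within cells 48 to 188, and -0.58 in puberty. Lama1, a laminin chain of basement membranes, had adult and pubertal ratios of 3.40 and 0.44, and 1 cell held 60.1% of its adult cycling reads.

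Of 52 receptor genes, 34 could be compared in puberty and 38 in the adult. In puberty 1 was at least 2-fold higher and 6 lower (median -0.34), and in the adult 6 were higher and 14 lower (median -0.26), next to 18.7% and 29.2% lower over all genes. Insr, the insulin receptor, was the one receptor past 2-fold in the same direction at both stages. Its means were 14.0 and 57.3 CPM in puberty and 11.8 and 62.5 CPM in the adult (log2 ratios -1.714 and -2.004). Both pubertal means leaned on single cells. Among the other cells, cell 50 had 3790 CPM and the next highest 820 CPM. Among the cycling cells, cell 64 had 340 CPM and the next highest 100 CPM. The adult cycling cells with reads were cell 126 at 240 CPM and cell 117 at 20 CPM. The pubertal shares of cells were close, 6 of 40 and 22 of 131, and the adult ones were 2 of 22 (9.09%, interval 1.12 to 29.2%) and 39 of 130 (30%, interval 22.3 to 38.7%). Bmpr2, a BMP receptor, had ratios of -1.17 and 1.16, each led by 1 cell (100% and 85.7% of the cycling reads).

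Among growth factor receptors Egfr stood out in the adult. It had reads in 13 of 22 adult cycling cells (59.1%, interval 36.4 to 79.3%), with a median of 20 and a highest value of 670 CPM, against 29 of 130 others (22.3%, interval 15.5 to 30.4%), with a median of 0 and a highest value of 1210 CPM. The log2 ratio was 1.73. Within cells 48 to 188 the counts were 12 of 17 and 24 of 90 and the ratio 2.14, and among the 5 cycling cells outside them the ratio was -0.94. In puberty 6 of 40 cycling and 18 of 131 other cells had Egfr reads (15% and 13.7%). Of adult cells with Egfr reads 13 of 42 were cycling (31.0%, interval 17.6 to 47.1%), against 9 of 110 without (8.18%, interval 3.81 to 15.0%). Apart from cell 223, the adult cycling cells with Egfr reads were numbered 117 to 183. The highest other cells of that stretch were cells 155 and 157, at 80 CPM each. The part of cell number in the adult difference was not tested. These shares too have to be read against the larger share of cycling cells found for most genes. Adult cycling cells also had reads of Igf1r, the IGF1 receptor, in 20 of 22 against 89 of 130 cells, and of Fgfr2, the receptor of stromal FGFs, in 19 of 22 against 75 of 130, both with log2 ratios within 2-fold (0.12 and 0.50). In puberty these were 18 of 40 and 65 of 131 for Igf1r and 31 of 40 and 95 of 131 for Fgfr2. Erbb2 was in 12 of 40 against 30 of 131 pubertal and 1 of 22 against 19 of 130 adult cells. Erbb3 was in 4 of 40 against 14 of 131 pubertal and 6 of 22 against 6 of 130 adult cells, while its adult mean was lower in cycling cells (9.55 and 27.4 CPM), so no direction is read from it. The growth factor ligands had medians of 0.12 and -0.34, with 2 of 18 higher and 3 lower in puberty and 4 of 22 higher and 6 lower in the adult.

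Metabolic and growth genes did not follow the cell cycle genes at both stages. Of nucleotide synthesis genes 7 of 23 were at least 2-fold higher and 3 lower in puberty (median 0.75), and 3 of 22 were higher and 6 lower in the adult (median -0.40). Shmt2, the mitochondrial serine hydroxymethyltransferase, had ratios of 1.41 and 3.10, with reads in 7 of 22 adult cycling cells against 8 of 130 others, and in 4 of 40 against 17 of 131 pubertal cells, where 1 cell held 63.9% of the cycling reads and the share goes against the mean, so no order is read in puberty. Umps, of pyrimidine synthesis, had ratios of 1.87 and -1.43. Ribosome biogenesis genes had medians of 0.31 and 0.25 (4 of 22 higher and 4 lower in puberty, 5 and 2 of 22 in the adult), and glycolysis genes of -0.32 and -0.11. Of 13 and 14 early response genes of tissue dissociation, none was higher, and 2 and 3 were lower (medians -0.30 and -0.55), with 1 of 14 lower within adult cells 48 to 188 (median -0.18). Of p53 target genes none was higher at either stage, 1 of 6 was lower in puberty and 4 of 8 in the adult (medians -0.32 and -1.47).

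Outside the lists of mitosis, replication, chromatin and histone genes, 10 genes were named as the most raised at both stages by their smaller log2 ratio, among genes found in at least 25% of cycling cells of each stage with no single cell holding 50% of the reads. Several of them are cell cycle genes that these lists did not hold. Ccnb1-ps, listed as a pseudogene of cyclin B1 (log2 ratios 4.11 and 3.62), is a near-identical copy of Ccnb1, so its reads may belong to Ccnb1. Cip2a, an inhibitor of the phosphatase PP2A, was in 16 of 40 against 14 of 131 pubertal cells and 8 of 22 against 5 of 130 adult cells (2.85 and 3.23). Pclaf, a PCNA-binding factor, was in 32 of 40 pubertal cycling cells with a median of 370 CPM and in 18 of 22 adult ones with a median of 75 CPM, against 42 of 131 and 24 of 130 others (2.52 and 3.17). Aspm, of spindle poles, was in 19 of 40 against 13 of 131 and 12 of 22 against 11 of 130 (2.85 and 1.84), and Ska2, of kinetochores, in 18 of 40 against 6 of 131 and 17 of 22 against 10 of 130 (1.85 and 1.89). Rbl1, of the G1 list above, was also among them.

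The other 4 raised genes are not known chiefly for division. Psat1, phosphoserine aminotransferase of serine synthesis, was in 23 of 40 (57.5%, interval 40.9 to 73.0%) against 34 of 131 pubertal cells (26.0%, interval 18.7 to 34.3%), with means of 326 and 92.1 CPM, and in 18 of 22 (81.8%, interval 59.7 to 94.8%) against 21 of 130 adult cells (16.2%, interval 10.3 to 23.6%), with means of 185 and 37.8 CPM. Gclm, the modifier subunit of the enzyme that starts glutathione synthesis, was in 20 of 40 against 30 of 131 and 14 of 22 against 26 of 130 cells (log2 ratios 2.03 and 2.26). Zdhhc2, a palmitoyltransferase, was in 13 of 40 against 12 of 131 and 10 of 22 against 4 of 130 (2.81 and 2.68). Serpinb11, a serpin of epithelia, was in 13 of 40 against 15 of 131 and 19 of 22 against 25 of 130 (2.32 and 1.77), and its adult ratio was 0.67 within cells 48 to 188. All 10 genes were found in a larger share of cycling cells at both stages, as were 83.2% and 72.7% of all genes compared, and the choice of the genes favours this. In the adult 9 of 10 were past 2-fold within cells 48 to 188, 7 of 10 outside them and 6 of 10 among cells with luminal keratin alone. Outside cells 48 to 188 the ratio of Aspm was -3.02 and that of Zdhhc2 -0.070, and with luminal keratin alone that of Psat1 was -0.12 and that of Zdhhc2 -0.61.

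The 10 lower genes were Glul, Gpx3, Ablim1, Dcn, Piezo2, Zcchc24, Vti1b, Mtmr6, Ccnl2 and Sphk1, of which Dcn is also in the fibroblast list. Only 5 of the 10 were found in a smaller share of cycling cells at both stages, and for Dcn, Zcchc24 and Mtmr6 the share of cells was larger in cycling cells at both, so no order is read for these 3. Glul, glutamine synthetase, was in 7 of 40 (17.5%, interval 7.34 to 32.8%) against 48 of 131 pubertal cells (36.6%, interval 28.4 to 45.5%) and in 5 of 22 against 42 of 130 adult cells, with log2 ratios of -2.49 and -4.62 and a highest adult cycling cell at 40 CPM against 3560. Gpx3, the secreted glutathione peroxidase, was in 14 of 40 against 56 of 131 and 5 of 22 against 53 of 130 cells, with ratios of -2.47 and -5.03. Piezo2, a mechanosensitive channel, was in 5 of 40 against 34 of 131 pubertal cells, and in 0 of 22 adult cycling cells, which allows a share of up to 13.6%, against 37 of 130 (28.5%, interval 20.9 to 37.0%). Vti1b, a SNARE of endosomes, had ratios of -1.99 and -2.61, and Sphk1, sphingosine kinase, -1.78 and -2.04, though Sphk1 was in more adult cycling cells (81.8% and 58.5%).

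Markers of other cell types were at or near 0 in most cycling cells. The summed immune, endothelial, pericyte and erythroid markers had medians of 0 CPM in all 4 groups of cells, and immune markers reached at most 20 CPM in a pubertal and 350 CPM in an adult cycling cell. Pericyte markers had a higher summed mean in adult cycling than in other adult cells (138 and 47 CPM), with highest cells at 2440 and 2140 CPM, and 1 cell held 99.1% of the cycling reads of Pdgfrb, a pericyte and stromal receptor. Fibroblast markers had similar medians in cycling and other cells (15 and 20 CPM for pubertal cells, 95 and 90 CPM for adult ones), but the others included cells of up to 62220 and 38920 CPM, against 13790 and 1710 CPM among cycling cells. So 8 of 9 fibroblast genes were at least 2-fold lower in cycling cells at both stages (medians -2.29 and -2.66), with Col1a1, the type I collagen chain, in 5 of 40 and 22 of 131 pubertal cells. The sum of all these markers reached 2000 CPM in 2 of 40 cycling and 18 of 131 other pubertal cells and in 1 of 22 and 20 of 130 adult cells. Without those cells the cycling share came to 25.2% in puberty and 16.0% in the adult, genes higher and lower numbered 1337 and 1435 in puberty and 1588 and 2104 in the adult, and the adult ratio of Dcn, decorin, turned from -2.96 to 0.60.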

How the data were processed

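Single epithelial cells of 444 libraries (221 pubertal, 223 adult) were analysed from the counts deposited by the authors: whole-number counts of read pairs per RefSeq gene, made with Subread and featureCounts on mm10 (versions not given in the sources used here), not normalized. Of 27179 identifiers, 25275 matched a current gene; the others held 1.84% of reads and were left out with 15 mitochondrial and 123 ribosomal protein genes. Cells had medians of 313645 (puberty) and 304834 (adult) read pairs, and reads without molecular identifiers are not independent molecules. Retained cells were thinned to 100000 read pairs (random seed 1; Python 3.11.15, numpy 2.4.6) and compared as mean CPM, after a check on simulated counts. TMM factors came from edgeR 4.0.16. Genes outside the mitosis, replication, chromatin and histone lists were named by the smaller absolute log2 ratio over the stages, with the limits given above (applied to the other cells for lower genes); list members as the 2 to 4 with the largest such ratio, or as standard markers. The members, lists and rules were chosen with earlier results of these data known. Setting genes without reads in 1 group to 3 reads moved list medians by at most 0.35. The authors' combined table repeats the same counts and was not used. Alternatives are in the closing section.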

Additional observations from a re-analysis of the deposited data

How the results depend on the processing

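The share of cycling cells depends on the rule: asking for 3 genes gave 33.3% of pubertal cells, 8 genes 15.2% and 5.92% in puberty and the adult, and 50 CPM per gene 7.89% of adult cells. The share with both keratins was 5% and 27.3% (puberty, adult) at 500 CPM, 95.5% of adult cells at 10 CPM and 11.5% of pubertal cells with 8 rule genes. Genes 2-fold higher were 792 in puberty with 20 CPM added, 769 at a minimum of 50 CPM, and 762 and 583 (adult) without the highest cell of each gene. Lower genes were 867 in puberty with 20 CPM added, 2295 and 3440 with no minimum, 695 and 1062 at 50 CPM, and 3644 in the 4 cycling against 42 other adult cells with luminal keratin only. In the other settings, restriction to cells with 3000 or more genes included, these counts stayed within 1.5 times the values reported. That restriction and the one on other cell types' markers were chosen after seeing the data. Of 71 named genes, 1611 of 1792 ratios stayed on the same side of 2-fold, 143 crossed it and 38 changed sign from a value past 2-fold. In puberty these were Aldh1a3 with basal keratin (0.77) and 3000 genes (0.56), Sphk1 with luminal keratin (0.044) and Umps with 3000 genes (-0.083). In the adult, Aldh1a3 was -1.23 without the highest cell, -1.51 with 8 rule genes, -1.24 with basal keratin, -2.10 outside cells 48 to 188 and -2.03 with 3000 genes. Bmpr2 was -0.15, -0.50, -1.59 and -1.76 without the highest cell, with 8 rule genes, with luminal keratin and outside cells 48 to 188. Csn2 was -5.87 with basal keratin, -6.34 in cells 48 to 188 and -3.60 with 3000 genes. Dcn was 0.45 with 3000 genes and 0.60 without other cell types. Esr1 was 0.62 with basal keratin, 0.62 in cells 48 to 188 and 0.53 with 3000 genes, and Ly6a 0.094, 0.29 and 1.27. Among the 45 adult cells outside cells 48 to 188, with 5 cycling cells, Aspm was -3.02, Egfr -0.94, Erbb3 2.63, Mcm5 -0.26, Vti1b 0.059 and Zdhhc2 -0.070. With luminal keratin only, with 4 cycling cells, Lama1 was -0.31, Mcm5 -0.25, Mcm7 -1.67, Psat1 -0.12 and Zdhhc2 -0.61. With 8 rule genes Mfge8 was -0.85 and Trp63 0.043, and with basal keratin Wnt4 was 0.17. The cause of these changes was not tested. No paired analysis was possible because no test was made and the replicate numbers are cell numbers.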
